A study of Rattus norvegicus with 56 samples.

Results

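MiR-126a is described here through its 2 mature arms, miR-126a-3p and miR-126a-5p, which were taken by name from the raw counts of the 5 deposited tables. They were 2 of the 682 microRNAs counted in the series, and both were listed in the myocardium, in amniotic fluid and in maternal serum. Small RNA was sequenced from 56 samples of Sprague-Dawley rats at embryonic day 19, with 7 samples in each of 8 groups. The dams of the negative control (NC) groups were given distilled water by gavage and all other dams were given dimethadione (DMO), a teratogen that causes ventricular septal defects (VSD) in some of the fetuses. In the myocardium and amniotic fluid, the VSD groups came from DMO-exposed fetuses with a septal defect and the non-VSD groups from DMO-exposed fetuses with an intact septum, so both carried the exposure. For maternal serum there was a VSD group and an NC group only.

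A microRNA hairpin is cut into a 3p and a 5p strand, and the strand that is loaded into an Argonaute protein silences mRNAs that pair with its seed. MiR-126 lies inside Egfl7, a gene of endothelial cells, and is the microRNA most closely tied to the lining of blood vessels. The 3p strand represses Spred1 and Pik3r2, which are brakes on VEGF and FGF signalling, and Vcam1, an adhesion molecule for leukocytes, whereas the 5p strand represses Dlk1 and so helps endothelial cells to divide. Loss of the microRNA in mice gives leaky vessels and hemorrhage, and platelets also carry it.

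The mature strands are shown because the arms of this hairpin differ in seed and so in the mRNAs they can pair with. They are RefSeq sequences of rat build GRCr8, read 5′ to 3′, with the seed (bases 2 to 8) in capitals. MiR-126b, which lies on the other strand at the same place, is shown for comparison and was not listed in the tables.
miR-126a-3p: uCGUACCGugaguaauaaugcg
miR-126a-5p: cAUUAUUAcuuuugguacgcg
miR-126b: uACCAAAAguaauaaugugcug
MiR-126a-5p lies at chr3:29813182-29813202 and miR-126a-3p at chr3:29813219-29813240, both on the plus strand and 16 bases apart within the span of Egfl7. MiR-126b lies at chr3:29813177-29813198 on the minus strand and covers 17 bases of the 5p arm, with which it is complementary and not identical. No other mature microRNA among the 693 in the RefSeq table had the seed or the full sequence of either arm. RefSeq files the plus-strand hairpin under the symbol Mir126b, and the arms here were matched by mature name.

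The libraries differed in depth by tissue. Myocardial libraries held 1694811 to 9371130 microRNA reads, serum libraries 147609 to 581350 and amniotic fluid libraries 78188 to 331787. In the shallowest amniotic fluid library 3 reads, the limit that a count of 0 allows, corresponded to a level of 38.4 after scaling every library to the same total (CPM). Each tissue was extracted with a kit of its own, the myocardium came from wax blocks, and amniotic fluid was sequenced with another library kit on another instrument, so differences in level between tissues cannot be told apart from differences between the methods. The labels do not name the dams or litters, and p-values measure the spread between these samples only. In tissue RNA, more endothelial cells and more miR-126a per cell cannot be told apart.

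Marker microRNAs are given here ahead of the comparisons. The 7 heart muscle microRNAs summed to 16393 to 154353 CPM in the myocardium, at most 7143 in amniotic fluid and at most 16130 in serum. In 2 myocardial libraries, NC replicate 2 and VSD replicate 1, the 8 epithelial microRNAs summed to 17532 and 21156 CPM and exceeded the heart muscle list, which summed to 16393 and 19863. The group comparisons in the myocardium are therefore also given without these libraries, an alternative added after the data were seen. VSD replicates 4 and 5 held epithelial sums of 15649 and 13727 CPM and stayed in, because their heart muscle sums, 27967 and 58843, were higher. Those fits therefore leave out only some of the hearts with high epithelial sums. The effective library sizes from the trimmed mean of M-values (TMM) method, which assumes that most microRNAs do not change, moved the median log2 fold change of all myocardial microRNAs from 0.32 to -0.05 for VSD against NC, from 0.13 to -0.07 for non-VSD against NC and from 0.19 to 0.02 for VSD against non-VSD, so changes in the myocardium are given on both scales.

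MiR-126a-3p was among the most abundant microRNAs of the myocardium. On the CPM scale, the 7 NC myocardial samples ran from 9414 to 14142 with a median of 10996.5, the VSD samples from 14210.1 to 26480.4 with a median of 20530, and the non-VSD samples from 18967 to 27550 with a median of 22503. It ranked between place 8 and place 19 of all microRNAs in each of the 21 libraries. MiR-126a-5p was lower in every one of them, with group medians of 1358, 1943 and 1546 CPM and ranks from 42 to 77.

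In maternal serum both arms were intermediate. MiR-126a-3p ran from 1981 to 5292 CPM in NC serum, with a median of 3441, and from 1176 to 7053 in VSD serum, with a median of 2775. The 5p arm had medians of 1006 and 904 CPM and stood closer to its partner than in the myocardium. The ranges of the serum groups overlapped for both arms.

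Amniotic fluid held the least. MiR-126a-3p ran from 482 to 1478 CPM in NC fluid with a median of 534, from 160 to 3293 in VSD fluid with a median of 584, and from 902 to 4207 in non-VSD fluid with a median of 1816. In reads this was 13 to 1168 per library, so the fluid values carry far more counting error than the myocardial ones. MiR-126a-5p had 0 to 165 reads and was not seen in 4 of the 21 fluid libraries, VSD replicates 2 and 3 and non-VSD replicates 5 and 7.

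Ordered by the median of the 3p arm, the groups ran from non-VSD, VSD and NC myocardium through NC and VSD serum to non-VSD, VSD and NC amniotic fluid. Non-VSD and VSD myocardium overlapped, NC myocardium lay below both on this scale, and every myocardial sample lay above every serum and fluid sample. From NC serum downwards each group overlapped with its neighbour.

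**Figure D1:**
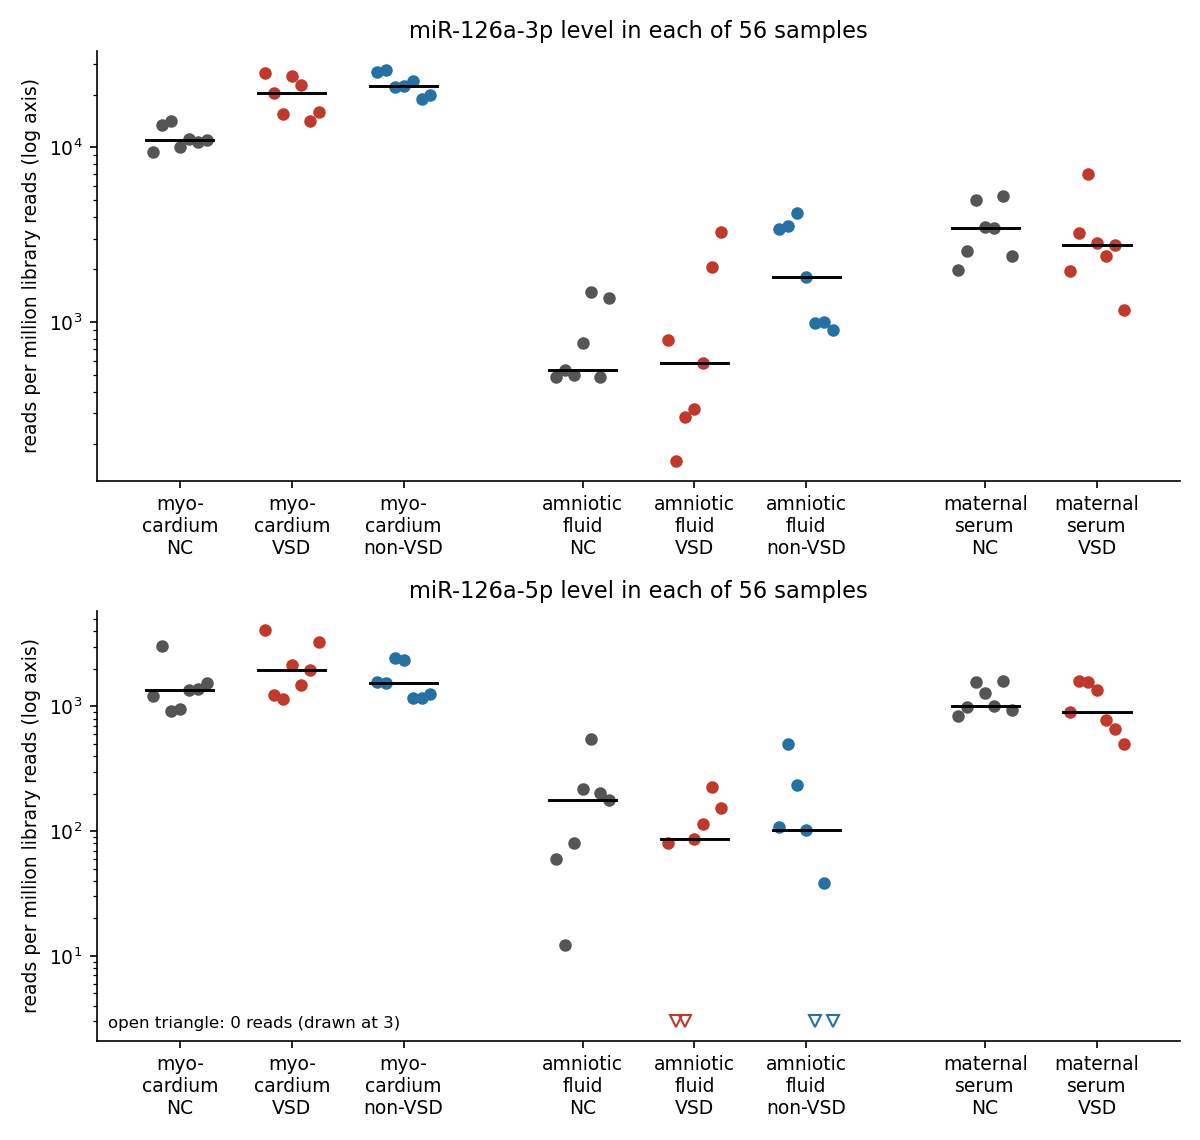
Level of miR-126a-3p (top) and miR-126a-5p (bottom) in each of the 56 samples, in CPM on a log axis, by tissue and group; dots are samples, bars are group medians and open triangles are libraries with 0 reads. Without TMM factors, all 14 DMO-exposed myocardial samples lie above the 7 NC samples for the 3p arm (lowest 14210.1, highest NC 14142). No such separation is seen for the 5p arm. With library size only, 1.04% of microRNAs separate this way for VSD and 1.86% for non-VSD hearts. After TMM scaling both groups overlap with NC for the 3p arm.

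The first comparison asked whether fetal hearts with a VSD differed from unexposed hearts in miR-126a. MiR-126a-3p had a fitted log2 fold change of 0.35 (SE 0.18, 1.27-fold, n = 7 per group) and did not pass the test (edgeR quasi-likelihood, adjusted p = 0.281 over 469 microRNAs), while 0.213% of all microRNAs passed in the upward direction. After TMM scaling the VSD samples ran from 13931 to 19806 and the NC samples from 10152 to 22441, and the groups overlapped, mainly because NC replicate 3 lay above all VSD samples while the other 6 NC samples reached 13987. The exact permutation test of the TMM-scaled log2 levels gave p = 0.0571 (two-sided). MiR-126a-5p had a log2 fold change of 0.18 (SE 0.27) with an edgeR adjusted p of 0.727.

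The result for the 3p arm depended on the scaling. With library size as the only scaling, its log2 fold change was 0.82 (SE 0.17) and the edgeR adjusted p was 0.0285, the groups did not overlap, and the exact permutation p was 0.000583, the smallest that 7 against 7 samples allow. On that scale 1.04% of the microRNAs had all VSD samples above all NC samples and the median microRNA was itself up by 0.32. Over 22 alternatives the fold change stayed positive, from 0.22 to 0.82, and the adjusted p ran from 0.0285 to 0.531. Without the 2 libraries of high epithelial microRNAs it was 0.25 (SE 0.22, adjusted p = 0.471).

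The second comparison set DMO-exposed hearts with an intact septum against NC. The fitted log2 fold change of miR-126a-3p was 0.77 (SE 0.20, 1.70-fold), which was place 7 by p of 456 microRNAs in edgeR. The unadjusted p was 0.00166 and the adjusted p 0.0911 in edgeR's quasi-likelihood test. It therefore missed the adjusted threshold, which 1 microRNA passed (0.219%). With TMM scaling it also did not reach the 2-fold change of the study's DE-microRNA definition, met by 4.17% of microRNAs. TMM-scaled levels ran from 18583 to 29525 in the non-VSD samples, all of them above the NC median of 13636, and 3 of 7 lay above the highest NC sample. The exact permutation test gave p = 0.00291.

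The adjusted p was close to its threshold. Without NC replicate 3 the log2 fold change was 0.93 and the edgeR adjusted p was 0.0192, whereas leaving out any other single sample kept the adjusted p between 0.0676 and 0.186. With library size as the only scaling the log2 fold change was 1.03 (SE 0.13, edgeR adjusted p = 0.000427), just over 2-fold. On that scale the groups did not overlap (true of 1.86% of microRNAs in this direction), and the median microRNA was up by 0.13. Over 22 alternatives the value lay between 0.68 and 1.03 and the adjusted p between 0.000427 and 0.242, under 0.05 in 5 of them, which besides the fit without NC replicate 3 were DESeq2, library size only, at least 10 counts in every sample and all 3 groups in 1 fit. Without the library of high epithelial microRNAs in the NC group it was 0.72 (SE 0.21, adjusted p = 0.0676).

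For the 5p arm the values of non-VSD and NC hearts lay together. Its log2 fold change against NC was -0.03 (SE 0.21, edgeR adjusted p = 0.958), with TMM-scaled levels of 1102 to 2139 in non-VSD and 1314 to 2494 in NC samples. The sign turned with library size as the only scaling (0.14, SE 0.28) and in 4 of the 14 fits without 1 sample, up to 0.10 (SE 0.20) without NC replicate 2.

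The third comparison set VSD against non-VSD hearts, which share the exposure and differ in the septum. The log2 fold change of miR-126a-3p was -0.39 (SE 0.18, 0.765-fold), with an unadjusted edgeR p of 0.0398 and an adjusted p of 0.426 over 483 microRNAs. At the unadjusted threshold 11.6% of the microRNAs passed and at the adjusted threshold 0.0%. By the exact permutation test p was 0.0216, and all 7 VSD samples lay below the non-VSD median of 20458 on the TMM scale. With library size only, the fold change was -0.21 (SE 0.15, edgeR adjusted p = 0.503). MiR-126a-5p had a log2 fold change of 0.26 (SE 0.25, edgeR adjusted p = 0.607). Without the 2 libraries of high epithelial microRNAs the values were -0.43 for the 3p arm (SE 0.18, edgeR adjusted p = 0.421) and 0.10 for the 5p arm (SE 0.25, adjusted p = 0.893). Both contrasts with NC used the same NC samples, and their values are not independent.

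Red blood cell microRNAs were on the other side of 0 in the same hearts. The 4 of them (miR-451-5p, miR-144-3p, miR-144-5p and miR-486) had a median log2 fold change of -2.37 in VSD and -1.61 in non-VSD hearts, and 0 of 4 passed the edgeR adjusted threshold while 4 and 3 passed unadjusted, beside 19.2% and 17.5% of all microRNAs. Their summed level was 3266 to 73069 CPM in NC, 4766 to 24223 in VSD and 3051 to 34882 in non-VSD hearts, and no member was at 0. The 8 epithelial microRNAs were all higher in VSD hearts, with a median of 1.20 and 0 of 8 passing at either threshold, and all lower in non-VSD hearts with a median of -0.25. Their summed level, however, had a higher median in non-VSD (1811 CPM) than in NC hearts (1084). NC replicate 2 held 17532, and the next NC heart, replicate 6, held 5462. Between VSD and non-VSD hearts the median log2 fold change of the 8 was 1.61, with 0 of 8 past the adjusted edgeR threshold and 2 past the unadjusted one, beside 0.0% and 11.6% of all microRNAs. The 6 white blood cell and platelet microRNAs had medians of -0.28 and -0.32 and the 7 heart muscle microRNAs of -0.51 and -0.20. The part of these cell types in the miR-126a values was not tested.

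**Figure D2:**
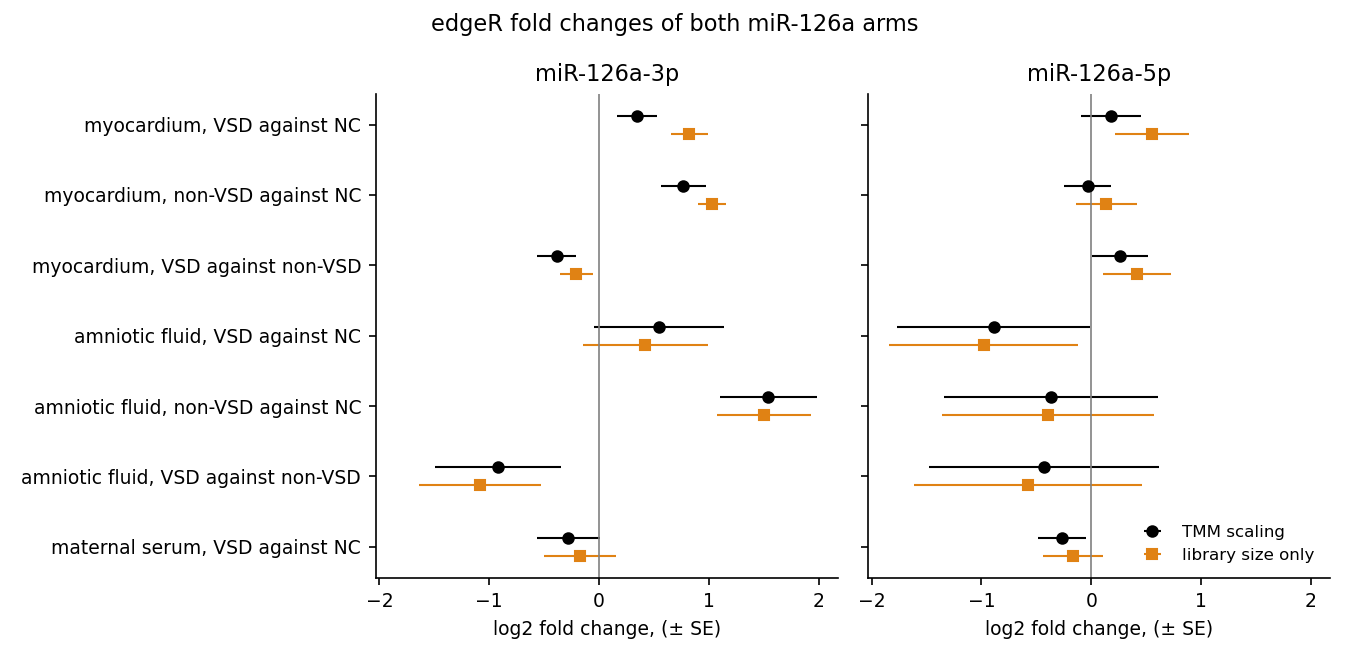
Log2 fold changes of miR-126a-3p (left) and miR-126a-5p (right) in the 7 comparisons, fitted in edgeR with TMM scaling (black circles) or library size only (orange squares), with bars of 1 SE. The 3p arm was farthest above 0 in the non-VSD groups against NC, 0.77 in the myocardium and 1.54 in amniotic fluid with TMM scaling.

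In amniotic fluid, which takes up fetal fluids and shed cells, miR-126a-3p rose in the non-VSD group. The log2 fold change against NC was 1.54 (SE 0.44, 2.91-fold), with an unadjusted p of 0.0023 and an adjusted p of 0.0464 (edgeR, 242 microRNAs, of which 4.96% passed in either direction and 3.31% upward). It also met the DE-microRNA definition of p under 0.05 with at least a 2-fold change, as did 12.4% of the microRNAs. The study lists miR-126a-3p as upregulated in non-VSD fluid too, from the same samples. Non-VSD levels on the TMM scale were 935 to 4073 with a median of 1407, against 455 to 1593 with a median of 516 in NC. All 7 non-VSD samples lay above the NC median, but 4 of them lay within the NC range, and the exact permutation test gave p = 0.0152.

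The call was close to its threshold. It was lost without any 1 of 9 of the 14 samples (fold changes of 1.35 to 1.75 over all 14, adjusted p of 0.0278 to 0.111). It held with DESeq2 (adjusted p = 0.00647) and was lost with limma on log2(CPM + 1) (1.44, adjusted p = 0.0725) and in a joint fit of all 3 groups (1.46, adjusted p = 0.158). Over all 22 alternatives, the red blood cell covariate described below included, the adjusted p ran from 0.00647 to 0.890.

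VSD fluid spanned a wider range. Replicates 6 and 7 held 2282 and 3779 CPM on the TMM scale and the other 5 held 157 to 818. The edgeR log2 fold change against NC was 0.55 (SE 0.59, adjusted p = 0.717, against 0.0% of microRNAs passing), while the difference of mean log2 levels was -0.09 (exact permutation p = 0.899). Against the non-VSD group the log2 fold change was -0.92 (SE 0.57, edgeR adjusted p = 0.711, with 0.0% passing).

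The 5p arm did not pass in any fluid comparison. Its log2 fold changes were -0.89 (SE 0.88) for VSD against NC, -0.36 (SE 0.97) for non-VSD against NC and -0.43 (SE 1.05) for VSD against non-VSD, with edgeR adjusted p-values of 0.687, 0.868 and 0.910. These values rest on 0 to 165 reads per library, and their SEs hold both counting error and the spread between samples.

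Red blood cell microRNAs differed between the same fluid groups. All 4 were higher in non-VSD fluid than in NC, with a median log2 fold change of 2.81, and 2 of them rose past the adjusted threshold: miR-451-5p by 2.51 (SE 0.63, edgeR adjusted p = 0.0272) and miR-486 by 1.20 (SE 0.30, adjusted p = 0.0272). They summed to 15338 to 36170.2 CPM in NC, 18210.3 to 129517 in VSD and 26321 to 85934 in non-VSD fluid, with no member at 0. VSD replicates 6 and 7 and non-VSD replicates 1 to 3, the 5 fluid samples with the most miR-126a-3p, held 68759 to 129517, and the next highest was non-VSD replicate 5 with 64585, a sample with 990 CPM of miR-126a-3p. With the mean log2 level of the list as a covariate, an alternative added after the data were seen, the non-VSD difference in miR-126a-3p was 0.21 (SE 0.40, adjusted p = 0.890) and the VSD difference was -1.02 (SE 0.39, adjusted p = 0.228). Because the list itself differed between the groups, this fit cannot tell group and red blood cell level apart. In white blood cell and platelet microRNAs, 4 of 6 could be tested in non-VSD fluid, their median was 0.68 and none passed adjusted in edgeR (1 of 4 unadjusted, beside 19.4% of all microRNAs). Their summed level also set the same 5 samples apart, at 24630.4 to 38332 CPM against 5911 to 15524 in the other 16 fluid samples, and no member of the list was at 0 in a whole group. The part of red blood cells, white blood cells or platelets in the fluid values of miR-126a-3p was not tested.

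**Figure D3:**
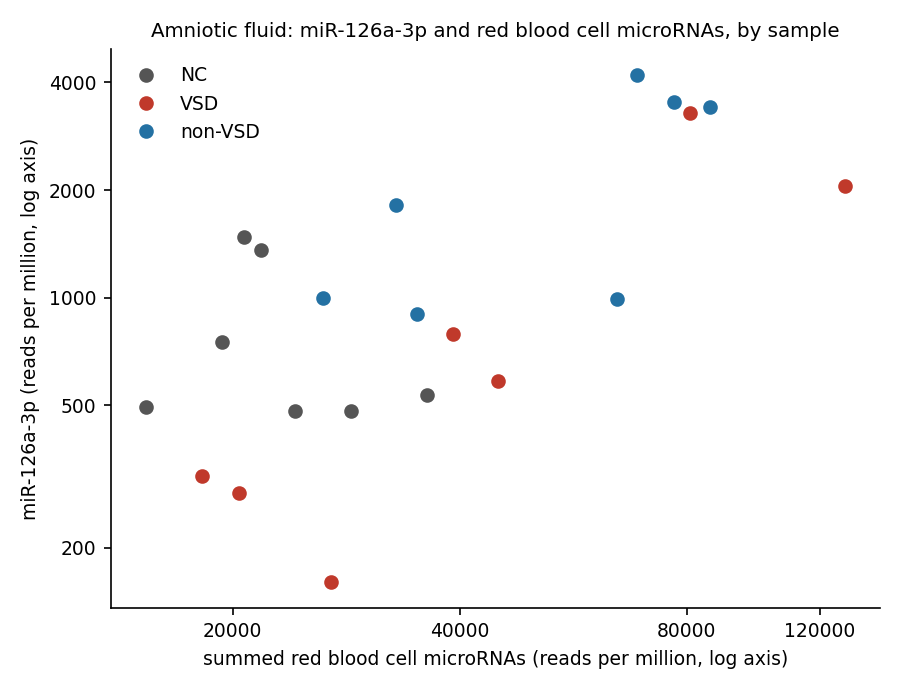
Summed level of the 4 red blood cell microRNAs (x) and level of miR-126a-3p (y) in the 21 amniotic fluid samples, in CPM on log axes, with 1 dot per sample coloured by group. The 5 samples with the highest miR-126a-3p, at 2054 to 4207, all lie at 68759 or more on the red blood cell axis, and among the 7 NC samples the axes do not rise together.

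In maternal serum neither arm passed the test. MiR-126a-3p had a log2 fold change of -0.28 (SE 0.29, adjusted p = 0.702) and miR-126a-5p of -0.27 (SE 0.22, adjusted p = 0.638) in edgeR over 219 microRNAs, of which 0.0% passed adjusted and 13.7% unadjusted. VSD replicate 3 held the most miR-126a-3p of the 14 samples (7053 CPM) and VSD replicate 7 the least (1176). The exact permutation p-values were 0.307 and 0.188.

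The change from NC to VSD was compared between tissues for each arm. For the 3p arm it was 0.38 in the myocardium and -0.34 in serum on the log2 TMM scale, a difference of 0.72 (permutation p = 0.0511, adjusted p = 0.307 over the 6 comparisons of this kind). No other difference came closer, with adjusted permutation p-values of 0.559 to 0.742. With library size only the difference was 1.07 (unadjusted permutation p = 0.0124).

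The ratio of the arms within a library does not depend on the scaling between libraries. In NC myocardium the 5p arm made up 6.13% to 18.6% of the miR-126a reads with a median of 11.5%, in VSD hearts 5.70% to 17.0% with a median of 7.85%, and in non-VSD hearts 4.67% to 9.93% with a median of 5.80%. Exact binomial 95% intervals of a single myocardial library were narrow, for instance 11.3% to 11.7% in NC replicate 1, because each rested on at least 28174 reads, and intervals here cover counting error only. The highest shares were those of NC replicate 2, VSD replicate 7 and VSD replicate 1.

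In non-VSD hearts the ratio leaned further to the 3p arm, at the unadjusted threshold only. The mean log2 ratio of 3p to 5p was 3.87 ± 0.46 (SD, n = 7) in non-VSD and 3.03 ± 0.55 in NC hearts, a difference of 0.84 (exact permutation p = 0.00874). Adjusted over the 151 hairpins with at least 10 reads per arm on average, p was 0.0660, so the adjusted threshold, passed by 9.93% of the hairpins, was missed. All 7 non-VSD ratios lay above the NC median, the groups overlapped through NC replicates 3 and 4, and the difference was at place 6 toward the 3p arm. At the unadjusted threshold 25.8% of the hairpins passed in either direction and 10.6% toward the 3p arm. Without NC replicate 2 the difference was 0.69 (exact permutation p = 0.0216).

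VSD hearts lay between the other groups on average. Their mean log2 ratio was 3.31 ± 0.68, which differed from NC by 0.28 (exact permutation p = 0.408, adjusted p = 0.642 over 157 hairpins, with 26.1% of hairpins passing unadjusted) and from non-VSD by -0.56 (exact permutation p = 0.0973, adjusted p = 0.490, with 10.9% passing unadjusted). Neither passed the test. Without the 2 libraries of high epithelial microRNAs the difference from NC was 0.23 (exact permutation p = 0.494). Without VSD replicate 1, the only such library in that comparison, the difference from non-VSD was -0.46 (exact permutation p = 0.181).

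**Figure D4:**
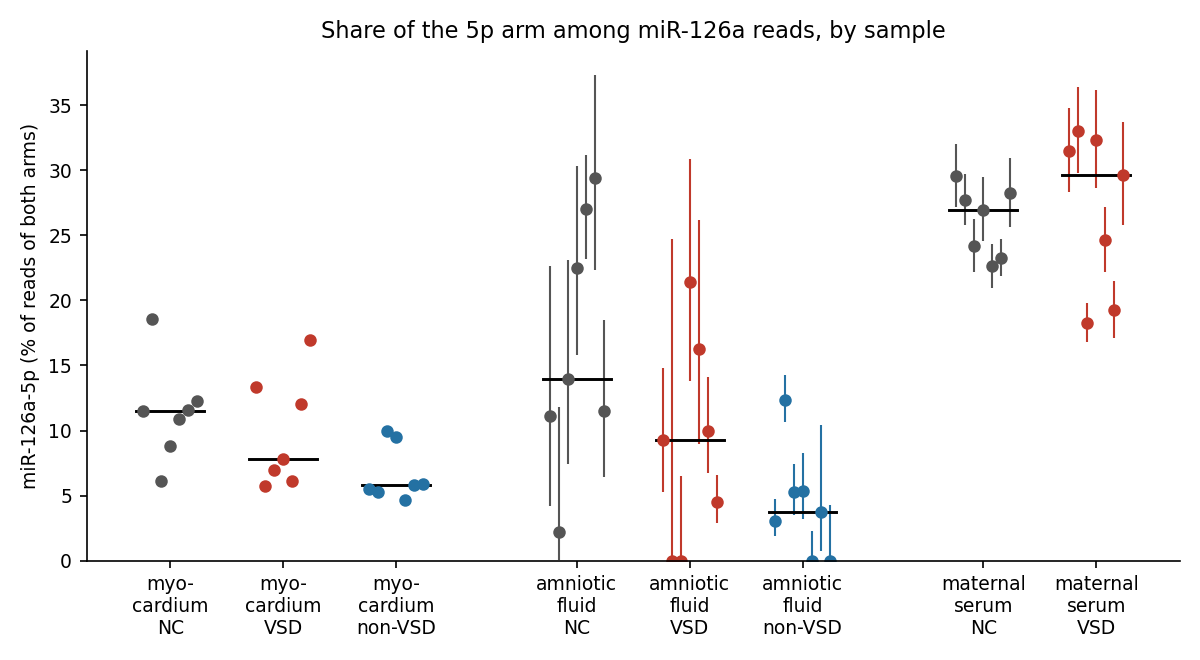
Share of miR-126a reads that came from the 5p arm in each of the 56 samples, in percent, by tissue and group; bars on the dots are exact binomial 95% intervals (counting error only, mostly within the dots in the myocardium) and black lines are group medians. Serum samples lie at 18.2% to 33.0% and non-VSD hearts at 4.67% to 9.93%, while amniotic fluid samples have wide intervals.

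In amniotic fluid the shares rested on 13 to 1333 reads per library. The 5p arm made up 2.22% to 29.4% of reads in NC fluid with a median of 14.0%, 0% to 21.4% in VSD fluid with a median of 9.26%, and 0% to 12.4% in non-VSD fluid with a median of 3.70%. The 0 of 158 reads in non-VSD replicate 5 allow a share of up to 1.90% and the 0 of 13 in VSD replicate 2 one of up to 23.1% when 3 counts are taken as the limit, while the two-sided exact 95% intervals reach 2.31% and 24.7%. The non-VSD log2 ratio, with 0.5 added to each count, was 5.18 ± 1.96 against 2.53 ± 1.24 in NC, a difference of 2.64 (exact permutation p = 0.0105, adjusted p = 0.171 over 49 hairpins).

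That difference was the largest toward the 3p arm of the 49 hairpins, 10.2% of which passed unadjusted (6.12% toward the 3p arm) and 2.04% adjusted. Its size depends on the added count because 2 of the 7 non-VSD libraries had no 5p read: with 5 added it was 1.93 (exact permutation p = 0.00117), and as a difference of medians it was 1.91 (exact permutation p = 0.0932). For VSD against NC the difference was 1.26 (exact permutation p = 0.135, adjusted p = 0.802 over 47 hairpins, 4.26% passing unadjusted), and for VSD against non-VSD it was -1.39 (exact permutation p = 0.181, adjusted p = 0.612 over 45 hairpins, 8.89% passing unadjusted).

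**Figure D5:**
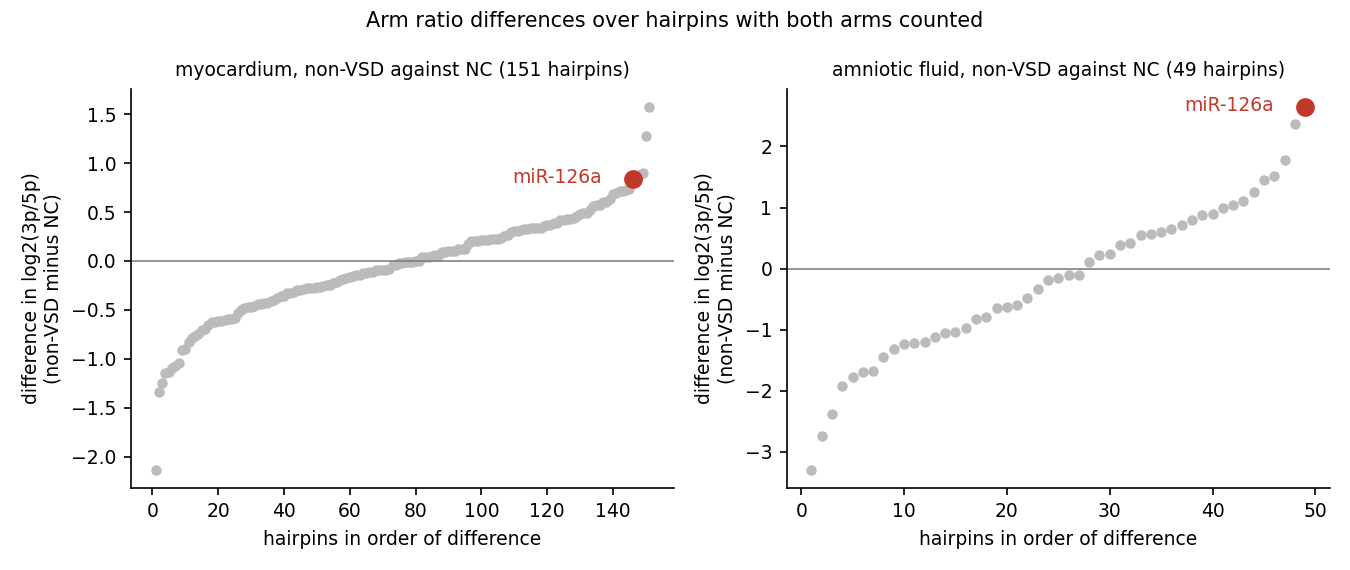
Differences in the log2 ratio of 3p to 5p reads between non-VSD and NC samples for all hairpins with both arms counted, in order of size, in the myocardium (left, 151 hairpins) and amniotic fluid (right, 49 hairpins), with miR-126a in red. MiR-126a lies at place 6 from the top at 0.84 in the myocardium and at the top at 2.64 in amniotic fluid.

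Maternal serum held the most 5p arm. Its share was 22.6% to 29.5% in NC serum with a median of 27.0%, and 18.2% to 33.0% in VSD serum with a median of 29.7%. The mean log2 ratio was 1.51 ± 0.20 in NC and 1.47 ± 0.48 in VSD serum (difference -0.04, exact permutation p = 0.847, adjusted p = 0.914 over 41 hairpins, 7.32% passing unadjusted). The SD of NC serum was the smallest of the 8 groups.

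Among NC samples the ratio in the myocardium exceeded that in serum by 1.52 on the log2 scale (exact permutation p = 0.000583, the smallest possible, adjusted p = 0.000747 over 41 hairpins). The samples did not overlap, as was so for 78.0% of the hairpins, and 92.7% of the hairpins differed between these tissues, so a difference as such was usual. The fluid ratio did not differ detectably from the myocardial ratio (0.49 lower, exact permutation p = 0.357, adjusted p = 0.401, 73.9% of 46 hairpins passing), and that value moved with the settings. Without fluid NC replicate 2 it was 0.89 lower (exact permutation p = 0.0355), with 5 added to each count it was 0.98 lower (exact permutation p = 0.0128), and among VSD samples the myocardium minus fluid difference was -0.48 (exact permutation p = 0.528). The NC fluid ratio was 1.02 above that of serum (exact permutation p = 0.0390, adjusted p = 0.0651 over 25 hairpins, 44.0% passing), with its 7 samples from 1.25 to 4.89 on the log2 scale. The unadjusted call was lost in 8 of the 14 fits without 1 sample (0.63 to 1.24), with 5 added to each count (0.54) and as a difference of medians (1.14).

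How closely the arms varied together was computed within each tissue, and tissues were not tested against each other. Over the 14 serum samples the TMM-scaled log2 levels of the arms had a Pearson r of 0.81 (permutation p = 0.00052, adjusted p = 0.00156 over the 3 tissues) and a Spearman rho of 0.74 (permutation p = 0.00337, adjusted p = 0.00777). Leaving out the 2 samples farthest from the median gave r = 0.71, and within the NC and VSD groups r was 0.99 and 0.68. Over the 21 fluid samples r was 0.59 (permutation p = 0.00465, adjusted p = 0.00697) and rho 0.60 (permutation p = 0.00518, adjusted p = 0.00777), with r = 0.49 without 2 samples and 0.71 to 0.88 within groups.

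Over the 21 myocardial samples no relation was seen. Pearson's r was -0.08 (permutation p = 0.744) and Spearman's rho -0.11 (permutation p = 0.631), with r = -0.22 without 2 samples and -0.14 to 0.12 within groups. With library size only, r was 0.33 (permutation p = 0.151). The 5p arm stood at place 277 of 481 microRNAs in likeness to the 3p arm in the myocardium, at place 13 of 271 in fluid and at place 12 of 217 in serum.

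The microRNAs most like miR-126a-3p were other ones in each tissue. Likeness was the Spearman correlation of TMM-scaled log2 levels over all samples of a tissue, which share depth and groups, and it is given as a description. In the myocardium they were miR-340-3p (0.87), miR-145-3p (0.77) and miR-24-3p (0.76), and their log2 fold changes in non-VSD hearts were 0.84, 0.61 and 0.61, with edgeR adjusted p-values of 0.0926, 0.106 and 0.126. In amniotic fluid they were miR-451-5p (0.91), a microRNA of red blood cells, miR-363-3p (0.82) and miR-144-5p (0.81), which shares a primary transcript with miR-451. These 3 had 4 to 1526, 0 to 102 and 0 to 530 reads per fluid library. In serum they were miR-26a-5p, miR-30a-5p and miR-26b-5p (0.88 each), which are made in many cell types.

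Other microRNAs of vessels were counted as a list of 19. The list was chosen with earlier results of these data known, so its counts are a description only. Among its members were the miR-23/27/24 clusters, miR-221 and miR-222, members of the miR-17/92 cluster, miR-10b-5p, miR-132-3p and miR-139-5p. It also held the hypoxia-induced miR-210-3p and miR-218a-5p, which is hosted by Slit genes that guide vessel growth. In non-VSD hearts 1 of 19 rose past the adjusted threshold, beside 0.219% of all microRNAs. It was miR-218a-5p, higher by 0.88 (SE 0.17, edgeR adjusted p = 0.0428), and it was also the member with the lowest p in VSD hearts (0.61, SE 0.18, adjusted p = 0.0803). In VSD hearts 0 of 19 passed adjusted in edgeR, beside 0.426% of all microRNAs, and 3 unadjusted, beside 19.2%. The median of the list was 0.11 in VSD and 0.00 in non-VSD hearts, beside -0.05 and -0.07 over all microRNAs. At the unadjusted threshold 5 of 19 were higher and 2 lower in non-VSD hearts, beside 17.5% of all microRNAs in either direction. The list's log2 fold changes in non-VSD hearts ran from -0.74 to 1.19.

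MiR-24-3p, which was like miR-126a-3p over the myocardial samples, was the list's member with the lowest p between the DMO-exposed heart groups (-0.43, SE 0.19, edgeR adjusted p = 0.426). Between these heart groups 0 of 19 passed adjusted, beside 0.0% of all microRNAs. Unadjusted, 4 were higher and 1 lower in VSD hearts, beside 11.6% of all microRNAs in either direction. In amniotic fluid 15 of the 19 could be tested, and in non-VSD fluid 1 of them passed adjusted, beside 4.96% of all microRNAs. MiR-27b-3p, a microRNA of sprouting endothelium, fell in non-VSD fluid (-1.41, SE 0.30, edgeR adjusted p = 0.0272), the opposite direction to miR-126a-3p. The same microRNA had the lowest p in VSD fluid against NC (-0.71, SE 0.24, adjusted p = 0.231) and against non-VSD fluid (0.77, SE 0.28, adjusted p = 0.206). In serum 0 of 16 passed at either edgeR threshold, beside 0.0% adjusted and 13.7% unadjusted of all microRNAs, and miR-20a-5p had the lowest p (-0.56, SE 0.27, adjusted p = 0.356).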

How the data were processed

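The authors deposited raw counts per microRNA in 5 tables, made from TruSeq small RNA or, for amniotic fluid, QIAseq libraries, with bcl2fastq 2.19 and DESeq named in the submitters' processing notes; the aligner and annotation are not given in the sources used here, and neither is any use of molecular identifiers. The 70 columns of normalized values and the authors' comparison columns (fold changes and p-values) were not used. NC columns were identical in both tables of a tissue and were used once. Counts were fitted with edgeR 4.0.16 (R 4.3.3, filterByExpr, TMM, quasi-likelihood test) on the 2 groups compared, or on 3 groups for VSD against non-VSD, with Benjamini-Hochberg adjustment over all microRNAs. Arm ratios added 0.5 to each count and were compared by exact tests over 3432 groupings, and tissue changes and correlations by 100000 permutations (Python 3.11.15, scipy 1.17.1). Alternatives used DESeq2 1.42.0, limma 3.58.1, other scalings and filters, each sample left out, and a replicate block.

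Named microRNAs were the members, the 3 most like miR-126a-3p per tissue, marker-list members past an adjusted p of 0.05 and the vessel-list member of lowest p in each comparison. Members and lists were chosen with earlier results of these data known. The labels do not say whether replicate numbers pair samples. Same-numbered samples correlated above 0.1 in 5 of 7 pairs for VSD against non-VSD myocardium and for serum. In the other comparisons this was so for 0 to 3 of 7 pairs, and these values cannot settle whether samples were paired. On simulated counts with known changes, 90.0% of 4-fold changes were called at an adjusted p under 0.05 in the myocardium for non-VSD against NC (451 microRNAs) and 62.5% in amniotic fluid (230), and of 2-fold changes 49.2% and 18.2%. The simulation changed 70 microRNAs 4-fold and 65 2-fold in the myocardium, and 40 and 55 in fluid. In the data only 0.219% and 4.96% passed. Adjustment is milder when many microRNAs change, so these rates can exceed those of the reported tests.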

Additional observations from a re-analysis of the deposited data

Results flagged for a closer look

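MiR-126a-3p in NC myocardium, replicate 3, stood far from the other 6 NC samples on the TMM scale, at 22441 CPM against 10152 to 13987. By library total it held 14142, beside 13452 in NC replicate 2, and its TMM factor of 0.63 was the lowest of the 21 myocardial libraries. It also had the highest heart muscle sum of the 21 libraries, 154353 CPM. A TMM-scaled level is the level by library size divided by the TMM factor, so the factor of 0.63 took this sample from 14142 to 22441. Why the factor was low, and the part of the heart muscle microRNAs in the level, was not tested. It was the 1 such sample found in 24 checks (both levels and the arm ratio in each of 8 groups), and chance alone gives about 1 in 20 groups.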

How the results depend on the processing

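Limits are depth in amniotic fluid, where miR-126a-5p had few or 0 reads, and scaling in the myocardium. Without a pseudocount the fluid comparisons that hold libraries with 0 reads of the 5p arm gave no ratio, and with at least 10 counts in every sample miR-126a-5p was not tested in fluid.

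Of 170 alternatives other than leaving out a sample, 143 kept their direction and side of the threshold. For miR-126a-3p in non-VSD myocardium against NC, the call was gained with DESeq2 (0.75), library size only (1.03), at least 10 counts in every sample (0.74) and all 3 groups in 1 fit (0.73), and for VSD myocardium with library size only (0.82). In non-VSD fluid it was lost with limma (1.44), all 3 groups in 1 fit (1.46), the replicate block (1.46) and the red blood cell covariate (0.21). The sign turned for miR-126a-3p in VSD fluid with limma (-0.078), the replicate block (-0.084) and the red blood cell covariate (-1.02), and for miR-126a-5p in non-VSD myocardium with library size only (0.14) and without the epithelial-rich library (0.10), and in VSD against non-VSD fluid with the red blood cell covariate (0.51). The causes were not tested.

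For the arm ratio, the pairing by replicate number as a block left the differences as they were and moved the exact sign-flip p to 0.0625 for non-VSD against NC in the myocardium (0.84) and in fluid (2.64), and to 0.0469 for VSD fluid (1.26). Whether the numbers pair the samples is not known, so these p-values cannot decide whether the effect is weaker. Apart from these arm ratios and the fluid values of miR-126a-3p given above, no call or direction changed with the block. The difference of medians lost the call in non-VSD fluid (1.91) and between NC fluid and serum (1.14). With a pseudocount of 5 it was gained for VSD against non-VSD fluid (-1.24) and NC myocardium against fluid (0.98) and lost for NC fluid against serum (0.54). With VSD in place of NC samples, myocardium against fluid turned to -0.48. The VSD change of miR-126a-3p between myocardium and serum passed unadjusted with library size only (1.07), the correlation of the arms in the myocardium turned to 0.33, and the TMM-scaled median of miR-126a-3p in NC myocardium was 13636.

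Leaving out each sample in turn, the lowest and highest values were 0.68 and 0.93 for miR-126a-3p in non-VSD myocardium, where the call was gained without NC replicate 3, and 1.35 and 1.75 in non-VSD fluid, where it was lost without NC replicates 1, 2, 3, 4 or 6 and non-VSD replicates 1, 2, 3 or 5. Signs turned within ranges of -0.14 to 0.10 for miR-126a-5p in non-VSD myocardium, -1.27 to 0.14 in non-VSD fluid and -0.85 to 0.42 in VSD against non-VSD fluid, -0.11 to 0.84 for miR-126a-3p in VSD fluid (without VSD replicate 7), and -0.15 to 0.037 for the serum arm ratio. Arm ratio ranges were 0.75 to 1.65 for VSD fluid (gained without NC replicate 2), 0.28 to 0.89 for NC myocardium against fluid (gained without fluid NC replicate 2) and 0.63 to 1.24 for NC fluid against serum (lost in 8 of 14). The VSD change of miR-126a-3p ran from 0.55 to 0.91 for myocardium against serum (gained unadjusted in 9 of 28) and from -0.16 to 0.58 for fluid against serum.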
